A study of Mus musculus with 12 samples.

Results

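The genes described here are 10 transcription factor genes of the AP-1 and immediate early class. They comprise the Fos family (Fos, Fosb, Fosl1 and Fosl2), the Jun family (Jun, Junb and Jund), the zinc-finger genes Egr1 and Egr2, and Atf3. They were grouped by family name, with no cut on their values, but earlier results of these data were known. Egr3 and Egr4 are not among them and stand in a list of other immediate early genes. Each of the 10 symbols matched 1 row among the 55487 genes of the table. RNA-seq libraries came from 3T3-L1 cells, an established mouse fibroblast line used as a model of fat cell formation, since a hormone mix drives it to store lipid. The lines carried a lentiviral short hairpin, selected with puromycin, either scrambled (shScram) or against Fto (shFto), the gene of an RNA demethylase that acts on N6-methyladenosine. Cells were collected as confluent preadipocytes (Pre), at mitotic clonal expansion (MCE) and at the differentiation stage (Diff), with 2 libraries in each of the 6 groups. Diff names a stage, and adipocyte marker levels at that stage differed between the lines. All MCE and Diff cells had received the induction mix of IBMX, dexamethasone and insulin, so the stages differ in culture medium as well as in time. The sources used here do not say which of the study's Fto hairpins these cells carried, nor whether the libraries of a group came from separate cultures, so p-values measure only the spread between these libraries, which may be technical.

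AP-1 is a dimer of leucine zipper proteins. Jun proteins pair with each other or with a Fos protein, while Fos proteins need a Jun partner, and the dimers bind the AP-1 element TGACTCA or the related cyclic AMP element (CRE) TGACGTCA. Immediate early genes are switched on within minutes of a growth signal without new protein synthesis, through MAP kinases, serum response factor at CArG boxes and CREB at CREs, and their messages are mostly short-lived. In preadipocytes the induction mix is known to raise several of them briefly before the C/EBP and PPAR factors appear, which is a time span that the sampled stages do not cover.

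Promoters of 4 members are shown because the genes differed between lines or stages and because exact matches to elements of this pathway stood in them. They come from RefSeq windows on GRCm38.p6, which were given for 8 of the 10 members, and run over the 150 bases before an annotated start, 5' to 3' on the gene's strand. No GENCODE M21 exon overlapped them. Capitals mark the CRE core TGACG on either strand, the CRE variant TGACATCA and, in Egr2, also the CArG box. The core and the variant were added to the search after the windows had been read.
Fos, chr12:85473740-85473889, plus strand: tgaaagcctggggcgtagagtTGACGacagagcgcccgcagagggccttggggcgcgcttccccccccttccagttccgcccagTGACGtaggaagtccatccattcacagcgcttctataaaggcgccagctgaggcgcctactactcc
Jun, chr4:95052223-95052372, minus strand: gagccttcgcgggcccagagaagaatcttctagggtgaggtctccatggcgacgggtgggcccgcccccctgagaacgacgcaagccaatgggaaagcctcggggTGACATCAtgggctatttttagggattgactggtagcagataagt
Junb, chr8:84978749-84978898, minus strand: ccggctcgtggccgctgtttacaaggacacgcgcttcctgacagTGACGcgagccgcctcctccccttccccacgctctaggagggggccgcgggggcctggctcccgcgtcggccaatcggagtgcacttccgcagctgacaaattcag
Egr2, chr10:67537719-67537868, plus strand: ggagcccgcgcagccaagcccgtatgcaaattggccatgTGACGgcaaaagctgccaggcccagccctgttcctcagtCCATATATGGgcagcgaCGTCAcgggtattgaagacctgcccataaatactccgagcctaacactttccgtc
Windows ran from 250 bases before to 50 bases after a start. The core was found in 5 members (Fos, Fosb, Junb, Egr2 and Atf3) and in 20.8% of all 32851 RefSeq windows. The members had 12 windows, with more than 1 for Egr2, so a count of members and a share of windows are unlike measures. Since the core was picked after reading these windows, its count is no test. The CArG box was found in 1 member, Egr2, at -72 to -63 in the window shown, and in 1.63% of all windows. The variant was found in Jun, at -45 to -38, and in 3.62% of all windows. The full CRE, the AP-1 element, the EGR element GCGTGGGCG and the STAT element TTCNNNGAA were searched on both strands and matched no member's window. They stood in 1.79%, 5.2%, 0.612% and 8.3% of all windows. Each full CRE also holds the core. A match is a description of letters only. No window was given for Fosl1 and Egr1. The Jund window ended at 70697788, before the GENCODE gene start of 70698949. The windows of Fosl2 and Atf3 lay inside their GENCODE genes, as did the Egr2 window shown. The Egr2 sequence shown thus stands before an annotated start within the gene. Sequence outside the windows was not searched.

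Levels are given as TPM, a length-corrected share of a library that allows levels to be compared between genes, and the sequencing depth behind them is unknown. Fto itself ranged from 52.7 to 73.5 TPM over the shScram libraries and from 5.51 to 7.47 TPM over those of shFto. All 6 fibroblast markers of the list were at 1 TPM or more in every group. The markers of blood cells summed to 1.5 to 10.3 TPM, and those of endothelial and epithelial cells to 0.651 TPM or less and 1.12 TPM or less. Replicate 1 of shScram at Pre stood apart. Across genes, which are not independent, its log2(TPM + 1) correlated with its replicate at r = 0.939, against 0.990 to 0.993 in the other groups, and 14.53% of its TPM was mitochondrial, against 4.58% to 9.17% in the others. This share also separated the lines, with 4.58% to 5.44% in the shFto libraries and 5.72% or more in those of shScram. The difference between the shScram Pre replicates also followed GC content (Spearman rho = -0.71 across genes), where in the other groups rho ranged from -0.21 to 0.37. Replicate 1 of shScram at Diff is named shScram by its title and Fto knockdown by its treatment entry, and it was assigned by its title.

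The library that stood apart differed from its replicate most in Junb and Jund. In shScram preadipocytes, replicate 2 held 7.94 times as much Junb and 7.14 times as much Jund as replicate 1. For the other 8 members this ratio was 1.27 to 2.57, and replicates of Junb and Jund in the other groups differed by at most 1.28 times. Transcripts of Junb and Jund have the highest GC content among the members, 62.6% and 67.1%, while the others range from 51.2% to 59.9%. Since the tests share 1 estimate of the spread over all 12 libraries, this pair also widens the error of Jun-family genes at the later stages. The knockdown difference at Pre without this library was 0.42 for Fos, 0.81 for Fosb, 0.10 for Fosl1, 0.88 for Egr1, 1.00 for Egr2 and 0.94 for Atf3.

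**Figure D1:**
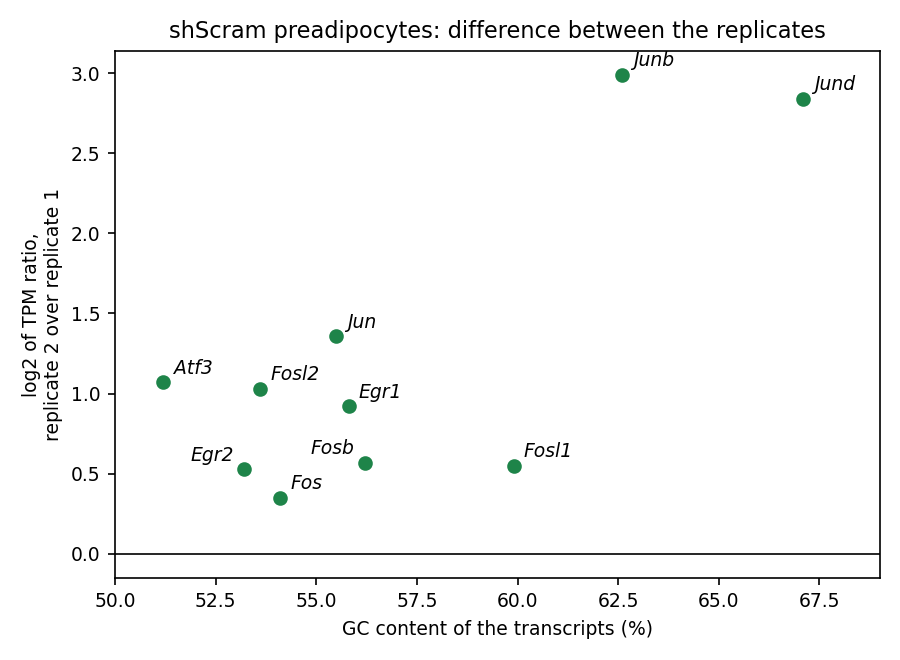
Log2 of the TPM ratio of replicate 2 over replicate 1 of shScram preadipocytes (y axis) against the GC content of each gene's transcripts in percent (x axis), with 1 point for each of the 10 genes. All points lie above 0, and Junb (2.99) and Jund (2.84) lie above the other members.

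The Fto knockdown was first compared with the control line at each stage. The mean of each of the 10 members was higher with the Fto hairpin than with the scrambled one at Pre, MCE and Diff. With limma on log2(TPM + 1) and Benjamini-Hochberg adjustment over 15968 genes, 8 of 10 members rose at Pre, 5 at MCE and 7 at Diff, and none fell. Among all genes tested, 15.9%, 10.5% and 11.9% were called higher, and 12.3%, 7.26% and 9.31% lower. The members' median difference was 1.19, 1.41 and 1.13 on the log2(TPM + 1) scale, against 0.08, 0.05 and 0.03 for all genes. Each shFto library lay above each shScram library for 10 members at Pre, 9 at MCE and 10 at Diff, which 33.6%, 41.1% and 39% of all genes also did. Without replicate 1 of shScram at Pre the rises numbered 7, 7 and 9, where 16.1%, 25.2% and 25.3% of all genes were called higher. After correction for GC content they numbered 7, 6 and 6, against 16.6%, 16.3% and 17.7% of all genes.

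Marker levels also differed between the lines. The fibroblast markers summed to 4298 to 7900 TPM in shScram and to 6364 to 6451 TPM in shFto at Pre, to 2536 to 2850 and 4899 to 5333 TPM at MCE, and to 5844 to 6149 and 8172 to 8584 TPM at Diff. They were thus higher in the knockdown at MCE and Diff and overlapped at Pre. For the adipocyte markers the sum over 6 genes was 121.0 to 181.7 TPM in shScram against 256.3 to 288.1 TPM in shFto at Pre, then 327.1 to 330.1 and 246.6 to 258.5 TPM at MCE, and 1365 to 1383 and 394.9 to 432.3 TPM at Diff. At Pre, Adipoq was at 0 in both libraries of each line, and Cidec and Cfd were at 0 in both shFto libraries. At MCE and Diff no marker of the list was at 0 in both libraries of a group. The part of these marker levels, and of the mitochondrial share that separated the lines, in the values of the AP-1 genes was not tested, and in bulk RNA fewer cells of a type and less RNA per cell cannot be told apart.

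Junb, which encodes a Jun protein that forms weaker activating dimers than c-Jun, had the largest difference between the lines on the log2(TPM + 1) scale at every stage. Junb (ENSMUSG00000052837) lies on chromosome 8 of GRCm38 from 84974484 to 84978718. Its level at Pre was 7.79 and 61.8 TPM in shScram against 179.4 and 203.8 TPM in shFto. At MCE it was 108.1 and 136.2 TPM in shScram against 444.9 and 482.7 TPM in shFto, and at Diff 58.0 and 51.4 TPM against 271.1 and 298.4 TPM. The lines did not overlap at any stage, and the lowest shFto library lay above the highest shScram library of all stages. The mean was 5.51, 3.80 and 5.21 times higher in shFto at the successive stages. Junb rose by 3.03 ± 0.69 (log2 ± SE) at Pre (adjusted p = 0.015) and by 2.36 ± 0.69 at Diff (adjusted p = 0.0397). The difference of 1.92 ± 0.69 at MCE missed the threshold (adjusted p = 0.0914), and over the alternatives this p ranged from 9.96e-07 to 0.305. The rise at Diff was called in 11 of 23 alternatives. Without replicate 1 of shScram at Pre, Junb was called at all 3 stages, with 1.61 at Pre and the values above at MCE and Diff. The reads of Junb could be shared with Prdx2 on the opposite strand, since the strand setting of the counting is not given in the sources used here.

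Jun and Jund were called in preadipocytes and not at the later stages. Jun (ENSMUSG00000052684, chromosome 4, 95049034 to 95052222) encodes c-Jun, the founding AP-1 subunit. It held 15.9 and 40.9 TPM in shScram against 73.1 and 72.3 TPM in shFto preadipocytes, a rise of 1.47 ± 0.33 (adjusted p = 0.0149). At MCE its level was 145.3 and 133.3 TPM against 161.6 and 154.8 TPM (log2 difference 0.18 ± 0.33, adjusted p = 0.779). At Diff it was 111.6 and 94.0 TPM against 125.7 and 136.1 TPM (0.35 ± 0.33, adjusted p = 0.511). Jund (ENSMUSG00000071076, chromosome 8, 70698949 to 70700616), whose product is the most constant of the Jun proteins in resting cells, held 26.0 and 185.7 TPM in shScram against 342.5 and 366.4 TPM in shFto at Pre. Its rise there was 2.32 ± 0.68 (adjusted p = 0.0348) and was called in 11 of 23 alternatives. At MCE Jund held 175.3 and 180.4 TPM against 218.9 and 224.7 TPM, and at Diff 194.6 and 152.4 TPM against 225.5 and 253.9 TPM. Those differences of 0.32 and 0.47 were not called (adjusted p = 0.815 and 0.682). Without replicate 1 of shScram at Pre, the difference at Pre was 0.81 for Jun and 0.93 for Jund and both stayed called, while the GC-corrected values at Pre were 0.93 and 1.00. Without that library Jund was also called at MCE and both genes at Diff. After GC correction the Diff value of Jund was -0.02. Jun overlaps Junos, and Jund overlaps Gm11175, each on the opposite strand.

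Fosl1 and Fosl2, which encode the Fos proteins Fra-1 and Fra-2 that lack the strong activation domain of c-Fos, were higher in the knockdown at MCE and at Diff. Fosl1 (ENSMUSG00000024912, chromosome 19, 5447547 to 5455946) held 44.0 and 58.6 TPM in shScram against 147.0 and 141.4 TPM in shFto at MCE. At Diff it held 13.2 and 9.43 TPM against 31.4 and 36.1 TPM. It was higher in the knockdown by 1.49 ± 0.22 at MCE (adjusted p = 0.00196) and 1.51 ± 0.22 at Diff (adjusted p = 0.00145), and it was called in all 23 alternatives at each of these stages. At Pre the level of Fosl1 was 10.2 and 14.9 TPM against 15.7 and 16.3 TPM, a difference of 0.35 ± 0.22 that was not called (adjusted p = 0.238) and that turned to -0.55 after GC correction. Fosl1 overlaps Ccdc85b on the opposite strand.

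Fosl2 (ENSMUSG00000029135, chromosome 5, 32135801 to 32157842) held 45.8 and 51.3 TPM in shScram against 139.9 and 143.5 TPM in shFto at MCE, and 48.9 and 46.0 TPM against 102.3 and 110.9 TPM at Diff. The rises were 1.53 ± 0.26 (adjusted p = 0.00407) and 1.15 ± 0.26 (adjusted p = 0.0134). At Pre it held 15.3 and 31.2 TPM against 38.1 and 40.7 TPM, a rise of 0.82 ± 0.26 (adjusted p = 0.0444) that was 0.33 without replicate 1 of shScram and was called in 10 of 23 alternatives. The groups did not overlap at any stage.

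Fos and Fosb, the classical short-lived members, were near 1 TPM in control cells. Fos (ENSMUSG00000021250, chromosome 12, 85473890 to 85477273) encodes c-Fos. It held 0.253 and 1.03 TPM in shScram against 3.36 and 4.36 TPM in shFto at MCE, and 1.54 and 1.18 TPM against 5.17 and 5.15 TPM at Diff. It rose by 1.60 ± 0.28 (adjusted p = 0.00487) and 1.39 ± 0.28 (adjusted p = 0.00821). At Pre, with 1.00 and 1.28 TPM against 1.43 and 2.82 TPM, the difference of 0.51 was not called (adjusted p = 0.184). Fosb (ENSMUSG00000003545, chromosome 7, 19302696 to 19310051) held 0.760 and 1.13 TPM against 2.93 and 2.52 TPM at Pre and 1.54 and 1.32 TPM against 3.32 and 3.29 TPM at Diff. It rose by 0.94 ± 0.24 (adjusted p = 0.0241) and 0.83 ± 0.24 (adjusted p = 0.0419). Both calls were lost after GC correction, with 0.35 and 0.67, and the call at Pre was lost without replicate 1 of shScram. At Diff Fosb was called in 7 of 22 alternatives. At MCE Fosb held 0.435 and 1.48 TPM against 1.44 and 1.51 TPM and was not called (0.39, adjusted p = 0.339). The log2(TPM + 1) scale understates the change of genes at such levels.

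Egr2, a zinc-finger factor with a known early role in adipogenesis upstream of C/EBPβ, was higher in the knockdown at every stage. Egr2 (ENSMUSG00000037868, chromosome 10, 67535475 to 67542188) held 0.839 and 1.21 TPM against 3.05 and 3.85 TPM at Pre. It held 0.942 and 0.899 TPM against 4.04 and 3.58 TPM at MCE, and 1.41 and 1.10 TPM against 4.43 and 5.03 TPM at Diff. The lowest shFto library lay above the highest shScram library of all stages. The rises were 1.14 ± 0.17, 1.32 ± 0.17 and 1.35 ± 0.17 (adjusted p = 0.00302, 0.00111 and 0.00081). Egr2 was called in all 22 alternatives that tested it at MCE and at Diff, and in 21 of 22 at Pre.

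Egr1, the widely used marker of growth factor signalling, differed at Pre and MCE. Egr1 (ENSMUSG00000038418, chromosome 18, 34859823 to 34864984) held 12.1 and 23.0 TPM in shScram against 37.4 and 49.7 TPM in shFto at Pre, a rise of 1.31 ± 0.26 (adjusted p = 0.00958). At MCE it held 4.35 and 4.14 TPM against 13.1 and 14.9 TPM, a rise of 1.51 ± 0.26 (adjusted p = 0.0047). At Diff, with 23.8 and 29.0 TPM against 30.9 and 31.5 TPM, the difference of 0.24 ± 0.26 was not called (adjusted p = 0.579) in the fit or in any of 23 alternatives.

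Atf3, a stress-induced leucine zipper repressor, was highest in knockdown preadipocytes. Atf3 (ENSMUSG00000026628, chromosome 1, 191170296 to 191218039) held 0.947 and 1.99 TPM in shScram against 5.35 and 4.19 TPM in shFto at Pre, a rise of 1.25 ± 0.24 (adjusted p = 0.00743). At MCE its 0.286 and 0.390 TPM against 0.629 and 1.19 TPM gave a difference of 0.50 that was not called (adjusted p = 0.197). At Diff Atf3 was listed at 0 in both shScram libraries and held 1.17 and 1.13 TPM in shFto. That difference passed the test (adjusted p = 0.0108), but its size rests on the pseudocount, with 1.10 at a pseudocount of 1 and 3.64 at 0.1, and no fold is given. Atf3 overlaps Gm24748 on the opposite strand.

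**Figure D2:**
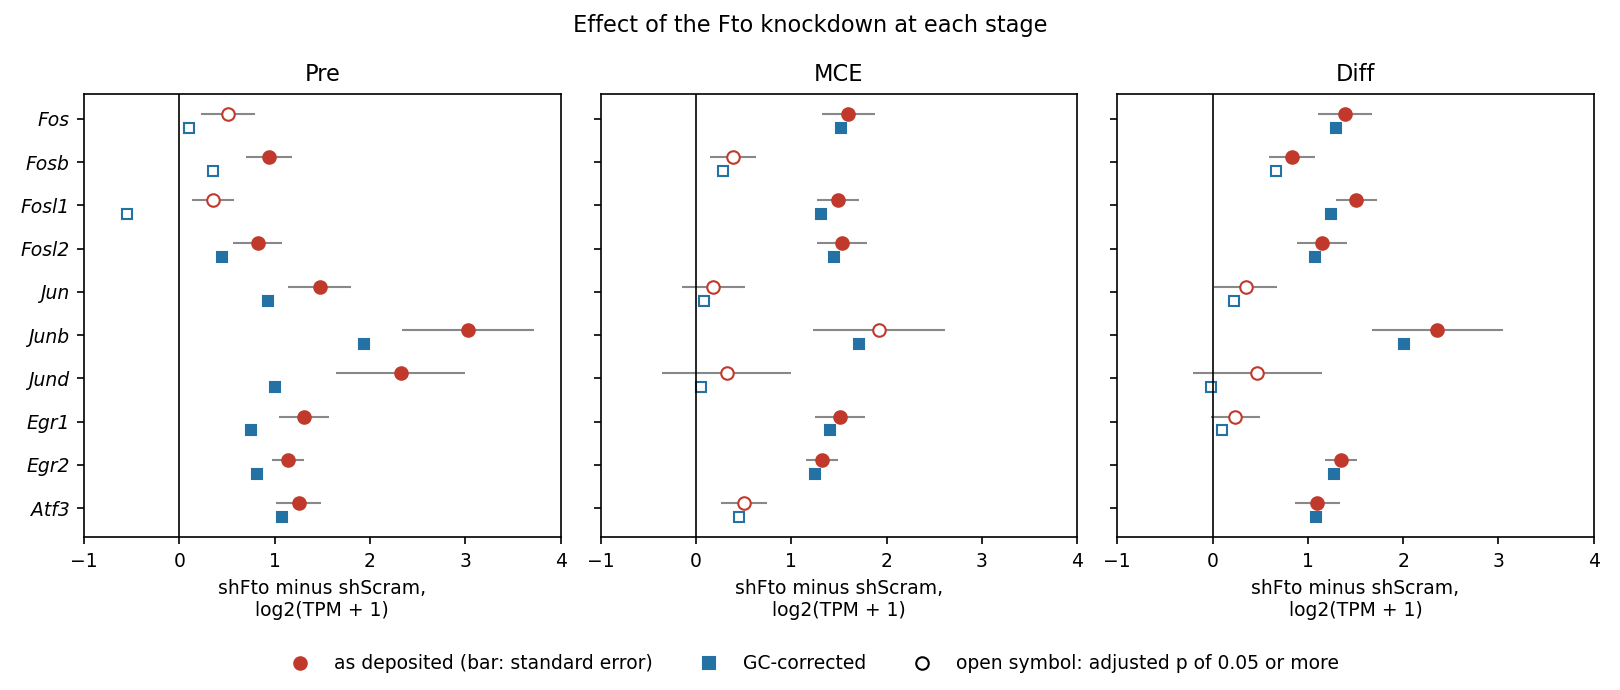
Difference between shFto and shScram on the log2(TPM + 1) scale (x axis) for each of the 10 genes (y axis) at Pre, MCE and Diff. Red circles with standard errors are the deposited values, blue squares the GC-corrected ones, and open symbols have an adjusted p of 0.05 or more. All red circles lie right of 0, and GC correction moves the values at Pre most, with Fosl1 at -0.55.

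Several calls were lost with 1 library left out, at nearly the same size of difference. In the fits behind the losses named in this paragraph, fewer of all genes were called too. That did not hold for the loss of Fosb at Pre without replicate 1 of shScram, given above. At Pre those of Fosb (0.86 to 1.02), Fosl2 (0.77 to 0.87), Jun (1.46 to 1.48), Junb (2.94 to 3.12) and Jund (2.27 to 2.37) were lost whichever of the shFto Pre libraries went. Fosl2 and Jund at Pre were also lost without any 1 of the 8 MCE and Diff libraries, where their values did not move. Egr1 at Pre was lost without replicate 2 of shFto (1.11) and Atf3 without its replicate 1 (1.11). At Diff the calls of Fosb (0.76 to 0.89), Fosl2 (1.09 to 1.21), Junb (2.28 to 2.45) and Atf3 (1.09 to 1.12) were lost whichever of the 4 Diff libraries went, and that of Fos without replicate 2 of shScram (1.28) or either shFto library (1.39). The calls of Fos, Fosl1, Fosl2, Egr1 and Egr2 at MCE held with each library left out.

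The effect of the knockdown was compared between stages with interaction contrasts. No member was called for MCE minus Pre (backgrounds 2.52% higher and 2.59% lower) or for Diff minus MCE (1.47% and 1.01%) by limma, while 3 and 1 members had an unadjusted p under 0.05, as 22.4% and 15.3% of all genes did. For MCE minus Pre these were Fosl1 with 1.14 ± 0.31 (adjusted p = 0.0716), Fos with 1.09 ± 0.40 (adjusted p = 0.155) and Jun with -1.28 ± 0.47 (adjusted p = 0.156). For Diff minus MCE it was Egr1 with -1.27 ± 0.37 (adjusted p = 0.132). Without replicate 1 of shScram at Pre, 4 members were called for MCE minus Pre, where 8.17% of all genes were called higher and 5.94% lower. The knockdown effect was then larger at MCE for Fosl1 (1.39) and Fosl2 (1.20) and larger at Pre for Jun (-0.63) and Jund (-0.61). Egr1 (-1.27) and Fosl2 (-0.38) were then called for Diff minus MCE, where 8.16% of all genes were called higher and 8.94% lower.

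From Pre to MCE, the members moved in both directions within each line. In shScram cells 4 members rose and 2 fell, while 12.2% of all genes were called higher and 26.9% lower. In shFto cells 3 rose and 2 fell, while 8.8% were called higher and 19.9% lower. These steps share the MCE libraries with the next one, and the median of all genes was -0.17 and -0.18 on the log2 scale. With median-ratio scaling that median was 0.00 in each line and the all-gene splits became 20.0% higher against 17.7% lower in shScram and 14.2% against 14.1% in shFto. With GC correction they became 22.9% against 21.7% and 20.5% against 18.9%.

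Fosl1 rose in each line, by 1.95 ± 0.22 in shScram (adjusted p = 0.000214) and 3.09 ± 0.22 in shFto (adjusted p = 1.79e-05). Fosl2 rose by 1.11 ± 0.26 (adjusted p = 0.00968) and 1.82 ± 0.26 (adjusted p = 0.000925). Jun rose by 2.40 ± 0.33 (adjusted p = 0.00075) and 1.11 ± 0.33 (adjusted p = 0.0343). Junb rose in shScram by 2.38 ± 0.69 (adjusted p = 0.0241), or 0.96 without replicate 1 of shScram at Pre, and in shFto its difference of 1.27 was not called (adjusted p = 0.21). Jund was not called in either line, with 1.33 in shScram (-0.06 without that replicate) and -0.67 in shFto (adjusted p = 0.147 and 0.514). Egr1 fell by 1.76 ± 0.26 in shScram (adjusted p = 0.00113) and by 1.56 ± 0.26 in shFto (adjusted p = 0.0023). Atf3 fell by 0.85 ± 0.24 (adjusted p = 0.0203) and by 1.60 ± 0.24 (adjusted p = 0.00113). The shScram values without replicate 1 at Pre were 1.70 for Fosl1, 0.62 for Fosl2, 1.74 for Jun, -2.19 for Egr1 and -1.16 for Atf3, and all 5 stayed called. The call of Jun in shFto was lost when any library other than those of shScram at Pre was left out. The shScram calls of Fosl2 and Junb were lost without replicate 2 of MCE, that of Junb also without its replicate 1, and that of Atf3 without either MCE library or replicate 2 of Pre.

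From MCE to Diff fewer members were called. In shScram 1 rose and 1 fell, where 20% of all genes were called higher and 5.22% lower, and in shFto 2 rose and 1 fell, where 20.2% were called higher and 6.48% lower. The median of all genes was 0.23 and 0.17. With median-ratio scaling the splits became 11.7% against 11.0% and 15.4% against 12.7%, and with GC correction 16.9% against 16.7% and 19.6% against 21.0%. Fosl1 fell by 2.09 ± 0.22 in shScram (adjusted p = 0.000366) and by 2.07 ± 0.22 in shFto (adjusted p = 0.000327). Egr1 rose by 2.38 ± 0.26 (adjusted p = 0.000499) and by 1.11 ± 0.26 (adjusted p = 0.0145), the latter a call lost without any 1 of the 4 shFto libraries of this step. Fosb rose in shFto by 0.80 ± 0.24 (adjusted p = 0.0406), a call that held in 7 of 22 alternatives, over which the value ranged from 0.27 to 1.11. Without replicate 1 of shScram at Pre the calls numbered 4 in shScram and 6 in shFto, with Jun and Junb added as falls in each line and Fosl2 in shFto. In that fit 38.3% of all genes were called higher and 13.7% lower in shScram, and 34.6% and 16.4% in shFto.

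The order of the group levels differed between members. For Fos and Egr2 the means of the 3 shFto groups lay above those of the 3 shScram groups, in the order Pre, MCE and Diff within shFto. Fos in shFto at Pre overlapped with shScram at Diff, and Egr2 in shFto overlapped between Pre and MCE. For Junb the 3 shFto groups also stood highest, in the order Pre, Diff and MCE, with no overlap among them. For Fosl1 the highest groups were shFto at MCE and shScram at MCE, with no overlap. For Egr1 the lowest were shScram at MCE and shFto at MCE, which did not overlap each other, while shFto at MCE overlapped with shScram at Pre. For Atf3 the highest was shFto at Pre, while shScram at Pre, shFto at Diff and shFto at MCE overlapped as neighbours in the order.

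The make-up of the families shifted with these changes. The Jun family summed to 428.6 and 449.9 TPM in shScram against 825.5 and 862.1 TPM in shFto at MCE. Junb made up 25.2% and 30.3% of that sum in shScram and 53.9% and 56.0% in shFto. At Diff its share was 15.9% and 17.3% against 43.6% and 43.3%, and at Pre 15.7% and 21.4% against 30.2% and 31.7%. The Fos family summed to 90.5 and 112.4 TPM in shScram against 291.7 and 290.7 TPM in shFto at MCE, and to 65.2 and 58.0 TPM against 142.2 and 155.4 TPM at Diff. At MCE Fosl1 made up 48.6% and 52.1% of it in shScram and 50.4% and 48.6% in shFto, so its share overlapped between the lines while the sum did not. Fos and Fosb each stayed at 5.04% or less of the family in every library. These shares are a description, with no test.

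**Figure D3:**
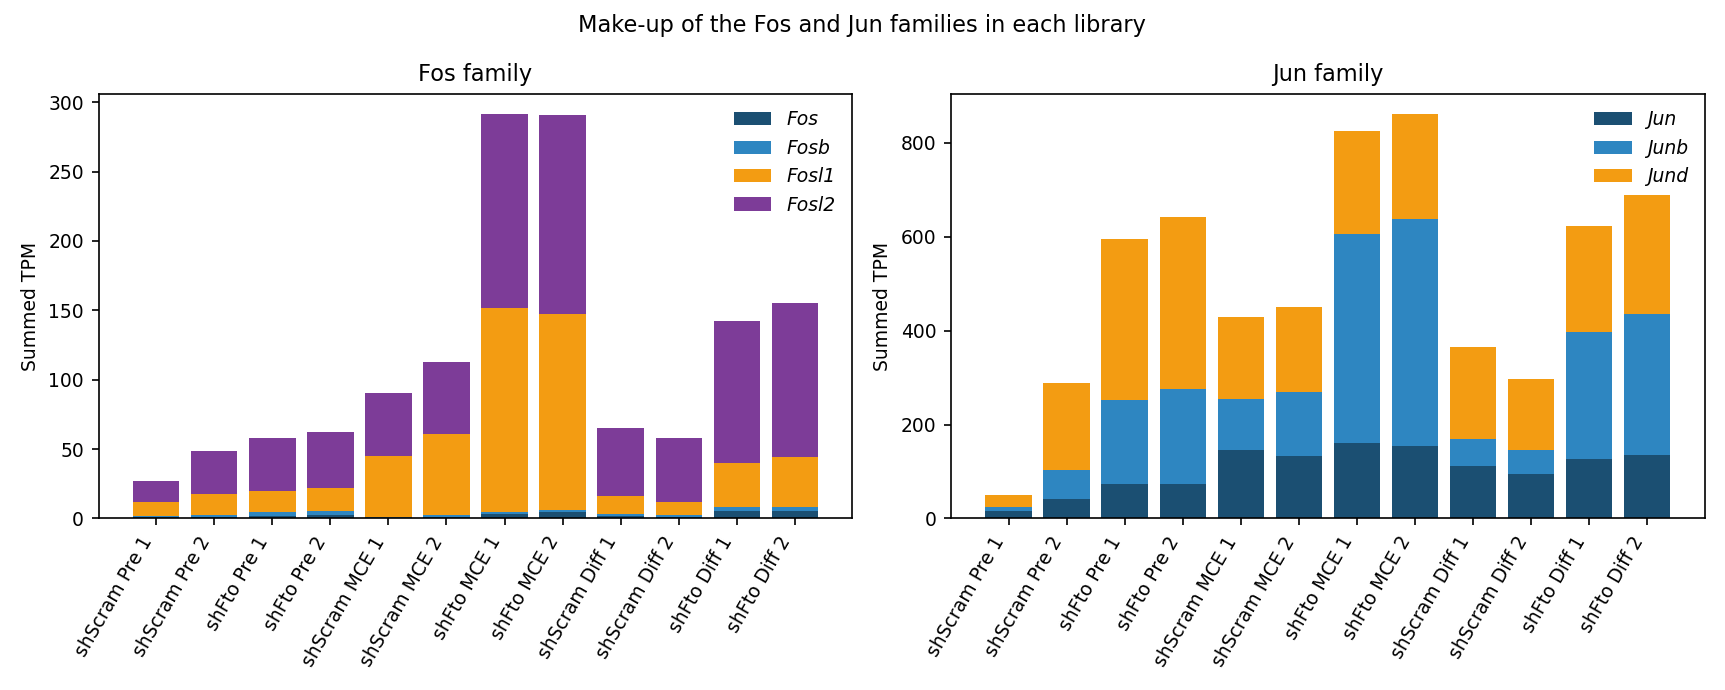
Summed TPM (y axis, from 0) of the Fos family (left) and the Jun family (right) in each of the 12 libraries (x axis), with coloured segments for the genes. Fosl1 and Fosl2 fill nearly all of the Fos bars, and the Junb segment is the largest of the Jun family in the shFto bars at MCE and Diff.

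Averaged over the 12 libraries, the members spanned a wide range of levels. Jund (212.2 TPM), Junb (192.0 TPM) and Jun (105.4 TPM) were highest, followed by Fosl2 (67.8 TPM), Fosl1 (44.9 TPM) and Egr1 (22.8 TPM). Egr2 (2.53 TPM), Fos (2.38 TPM), Fosb (1.81 TPM) and Atf3 (1.44 TPM) were lowest. The order of the Jun genes differed between groups, since Junb lay above Jund in shFto at MCE (463.8 against 221.8 TPM) and at Diff (284.7 against 239.7 TPM) and below it in the other groups. At 1 TPM or more, Atf3 was found in 1 of 6 shScram and 5 of 6 shFto libraries, and Egr2 in 3 of 6 and 6 of 6.

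Other genes of the pathway were read from lists of dimer partners, further immediate early genes, upstream kinases and factors, feedback inhibitors and AP-1 target genes. Beside each list's counts stand the all-gene shares already given, 15.9%, 10.5% and 11.9% higher and 12.3%, 7.26% and 9.31% lower at the successive stages. The shares without replicate 1 of shScram at Pre were 16.1%, 25.2% and 25.3% higher and 12.9%, 15.8% and 20.4% lower. Of 25 other immediate early genes tested, 17 rose and none fell in the knockdown at Pre, 12 rose and 3 fell at MCE, and 8 rose and 1 fell at Diff. Without that library the counts were 16 and 1, 16 and 5, and 17 and 3. Their median difference was 1.40, 0.75 and 0.47, beside 0.08, 0.05 and 0.03 for all genes. Nr4a1, an orphan nuclear receptor gene, held 35.8 and 38.0 TPM in shScram against 294.9 and 310.2 TPM in shFto at MCE (log2 difference 3.00, adjusted p = 6.83e-05). Its relative Nr4a2 held 3.09 and 2.05 TPM against 26.2 and 30.0 TPM (3.04, adjusted p = 2.21e-05). Klf6 fell by 0.67 and Zfp36l1, which encodes an mRNA decay factor, fell by 0.42 at MCE (adjusted p = 0.00992 and 0.0299). At Diff the Krüppel-like factor gene Klf2 rose by 2.90 and Ier3 by 2.12 (adjusted p = 0.00088 and 0.000321), while the kinase gene Plk2 fell by 0.50 (adjusted p = 0.00874).

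Of 12 feedback inhibitors, most of which damp MAP kinase signalling, 9 rose and none fell at Pre, 4 rose and 1 fell at MCE, and 5 rose and 1 fell at Diff. Rises and falls without replicate 1 of shScram at Pre numbered 9 and 1, 8 and 1, and 7 and 1. The MAP kinase phosphatase gene Dusp2 held 5.56 and 5.42 TPM in shScram against 28.2 and 29.3 TPM in shFto at MCE (2.20, adjusted p = 0.000117), and Dusp4 held 8.77 and 10.5 TPM against 42.5 and 45.3 TPM (2.08, adjusted p = 0.00035). At Diff Dusp2 rose by 1.85 and Dusp4 by 1.84 (adjusted p = 0.000221 and 0.000554). The falls were those of Spry1 at MCE, which fell by 0.78 (adjusted p = 0.0126), and Spry4 at Diff, which fell by 1.17 (adjusted p = 0.00586). Sprouty products inhibit receptor tyrosine kinase signalling. The median of the list was 1.27, 0.46 and 0.53 at the successive stages, beside 0.08, 0.05 and 0.03 for all genes.

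Of 22 upstream kinases and factors, 1 rose and 5 fell at Pre, 3 rose and 2 fell at MCE, and 1 rose and 2 fell at Diff, with medians of 0.14, 0.26 and 0.11. When replicate 1 of shScram at Pre was left out, more of the list was called at MCE and Diff, in both directions, as among all genes. At Diff rises then outnumbered falls in the list, as they did among all genes. With GC correction 2 rose and 7 fell at Pre, 4 rose and 4 fell at MCE, and 2 rose and 5 fell at Diff. The all-gene shares with GC correction were 16.6%, 16.3% and 17.7% higher and 15.5%, 13.3% and 15.8% lower. Neither shift was tested. Crem, a CRE-binding factor gene, held 4.56 and 5.61 TPM against 18.7 and 19.6 TPM at MCE (1.73, adjusted p = 0.00665). Elk3, a partner of serum response factor, rose by 0.99 at MCE and 1.03 at Diff (adjusted p = 0.00155 and 0.00101). The MAP kinase gene Mapk14 (p38α) fell by 0.67 at MCE (adjusted p = 0.0151) and by 0.56 at Diff (adjusted p = 0.0271).

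Of 9 other dimer partners tested, 3 rose and 2 fell at Pre, 1 rose and 2 fell at MCE, and 1 rose and 1 fell at Diff, with medians of 0.72, -0.04 and -0.13. Leaving out replicate 1 of shScram at Pre gave 2 and 2, 3 and 3, and 3 and 2 rises and falls, and with GC correction 1 rose and 3 fell at Pre, 1 rose and 3 fell at MCE, and 1 rose and 2 fell at Diff. The small Maf gene Maff held 2.19 and 2.61 TPM in shScram against 15.5 and 15.1 TPM in shFto at MCE (2.27, adjusted p = 0.00198) and rose by 1.86 at Diff (adjusted p = 0.0045). Maf fell by 0.90 at MCE (adjusted p = 0.00547), and Atf7 fell by 0.52 at MCE and 0.65 at Diff (adjusted p = 0.0195 and 0.00569).

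Of 13 AP-1 target genes tested, 7 rose at each stage, while 2, 3 and 2 fell, with medians of 0.94, 0.76 and 1.04. With replicate 1 of shScram at Pre left out, 7, 8 and 9 rose and 3 fell at each stage. Timp1, an inhibitor of matrix metalloproteinases, held 94.4 and 97.0 TPM in shScram against 855.7 and 931.0 TPM in shFto at MCE (3.21, adjusted p = 0.00059) and rose by 2.60 at Diff (adjusted p = 0.00142). Hmox1, which encodes haem oxygenase 1, held 47.2 and 46.7 TPM against 232.3 and 241.5 TPM at MCE (2.31, adjusted p = 0.000189), and rose by 2.04 at Diff (adjusted p = 0.000315). Ccnd1, the cyclin D1 gene, fell by 1.55 at MCE and 1.24 at Diff (adjusted p = 0.000271 and 0.000767). Mmp9 fell by 0.78 at MCE and Cd44 fell by 0.59 at Diff (adjusted p = 0.0342 and 0.0101). Other factors also control the genes of this list.

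Genes with the pattern most like each member were sought by Pearson correlation of log2(TPM + 1) over the 12 libraries among 10793 genes, as a description without a p since the libraries share groups and stages. Junb was most like Tmem203 (r = 0.995), Egr2 most like Slc35f5 (0.993), Jund most like Nosip (0.990), Fosl2 most like Thy1 and Jun most like D2hgdh (each 0.986). Fosl1 was most like the histone gene H2az2 (0.981) and Egr1 most like Lipt1 (0.971). Atf3 was most like Cox6a2 (0.965), Fosb most like Mpi (0.951) and Fos most like Kcnj15 (0.947). Without replicate 1 of shScram at Pre these values were 0.943 or more.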

How the data were processed

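Fragmented total RNA of shScram and shFto 3T3-L1 cells was sequenced in 12 libraries. Rhein-treated cells are not covered. Per the labels and the study's methods, the authors used Trim Galore 0.6.5 for trimming of paired reads, HISAT2 2.1.0 for alignment on GRCm38, and StringTie 2.1.4 with Ensembl annotation for quantification. The authors deposited TPM values per gene, which keep no depth. The authors ran DESeq2 1.30.1 for their own comparisons, and it was not repeated because no counts were used here.

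Groups followed the titles. Genes reaching 1 TPM in 2 or more libraries (15968, with all 10 members) were tested by limma 3.58.1 in R 4.3.3 on log2(TPM + 1), with a mean per group, a trended eBayes, 6 residual degrees of freedom, two-sided, with Benjamini-Hochberg adjustment over all genes tested and a threshold of 0.05. The other steps ran in Python 3.11.15 (pandas 2.3.3, numpy 2.4.6). The fits were tested on simulated data.

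Members, gene lists, tests and the rule for named genes were chosen with earlier results of these data known. All 10 members were named. From each pathway list the 2 highest and 2 lowest log2 changes among called genes at MCE and at Diff were named, apart from a gene that is not reported here, and for each member the 3 genes most like it were sought among tested genes with a mean TPM of 5 or more. Coordinates and GC content come from GENCODE M21 (GRCm38), which held 99.4% of gene identifiers. Alternatives were another pseudocount (0.1), no filter or a mean TPM of 5 or more, median-ratio and quantile scaling, the contrast's libraries alone, other eBayes settings, the replicate number as a block, GC correction, and each library left out.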

Additional observations from a re-analysis of the deposited data

How the results depend on the processing

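Of 1387 member values under 23 alternatives, 1187 kept their direction and their side of the threshold, 67 became called, 126 lost the call and 7 reversed, none of them called as reported. Reversals were Fosl1 at Pre with GC correction, with and without the replicate block (-0.55 each), Jund at Diff with GC correction, with and without the block (-0.02 each), Fosb at MCE (0.00 to 0.79 over the libraries left out, lowest without replicate 1 of shScram at MCE), Jund from Pre to MCE in shScram (-0.06 to 2.73, lowest without replicate 1 of shScram at Pre) and Junb for MCE minus Pre (-2.53 to 0.31, highest without that library). The cause was not tested. The 1387 values cover only the member comparisons chosen for reporting. Others also changed sign, such as Egr2 from MCE to Diff (-0.22 to 0.4) and Fosb from Pre to MCE (-0.43 to 0.36), both in shScram. Leaving out a library of a group that is not compared cannot change a difference, so part of the kept directions was fixed in advance.

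With each library left out, calls numbered 2 to 9 for the knockdown at Pre, 5 to 7 at MCE and 2 to 9 at Diff, 3 to 6 and 2 to 4 for the successive steps in shScram, 4 to 7 and 1 to 6 in shFto, and 0 to 5 and 0 to 2 for the stage differences of the knockdown effect. At Pre the count was 2 without either shFto Pre library, at Diff 3 without replicate 1 of shScram Diff and 2 without its replicate 2 or either shFto Diff library, for Pre to MCE in shScram 3 without replicate 2 of shScram MCE, and for MCE to Diff in shFto 1 without either shFto MCE or shFto Diff library. A group left with 1 library was assumed to vary like the others. The number of all genes called also moved with the library left out, so these counts are not particular to the members. Without either shScram Pre library, calls from MCE to Diff rose to 4 in shScram and 6 in shFto, those for Diff minus MCE to 2, and those for MCE minus Pre to 4 without replicate 1 and 5 without replicate 2.

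With no filter the count at Pre was 5, where 1810 of 33021 genes were called higher and 1479 lower. At a mean TPM of 5 or more, which leaves 6 members, the counts for the knockdown were 5, 3 and 3. There 2092, 1356 and 1284 of 10800 genes were called higher, and 1583, 843 and 976 lower. With the contrast's libraries alone, member calls numbered 0 at Pre, 0 and 4 for the steps in shScram, 8 and 6 in shFto, and 2 for Diff minus MCE. In these fits 0 of 15968 genes were called either way at Pre. For the steps in shScram, 198 and 4831 genes were called higher and 306 and 1623 lower. In shFto 2478 and 5800 were called higher and 5521 and 2884 lower. For Diff minus MCE 1265 were called higher and 1429 lower. With GC correction, with or without the block, member calls numbered 4 and 5 for MCE to Diff in shScram and shFto. They numbered 3 for MCE minus Pre and 1 for Diff minus MCE. Without the block, 5.76% of all genes were called higher and 4.96% lower for MCE minus Pre, and 4.55% and 3.65% for Diff minus MCE. Quantile normalization gave 1 member call for MCE minus Pre, where 402 of 15968 genes were called higher and 438 lower. Whether equal replicate numbers mark libraries of a shared culture or preparation is not known. Differences between replicates 1 and 2 correlated across genes at -0.29 to 0.17 over 15 group pairs, with 2 above 0.1. Such values cannot exclude a pairing, since the difference at shScram Pre followed GC content. The replicate block gave 8, 5 and 6 knockdown calls in place of 8, 5 and 7, and 2 in place of 3 for MCE to Diff in shFto. Depth is unknown, so the precision of members near 1 TPM cannot be given.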

Other observations

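Between stages genes of the pathway lists were called in both directions. Among all genes 12.2% were called higher and 26.9% lower from Pre to MCE in shScram, and 8.8% and 19.9% in shFto. From MCE to Diff the shares were 20% and 5.22% in shScram, and 20.2% and 6.48% in shFto. Whether the lists differ from these shares was not tested. Of 25 other immediate early genes, 10 rose and 7 fell from Pre to MCE in shScram cells and 6 rose and 10 fell in shFto cells, while from MCE to Diff 4 rose and 1 fell in shScram and 5 rose and 6 fell in shFto. Of 12 feedback inhibitors, 4 rose and 3 fell from Pre to MCE in shScram and 2 rose and 2 fell in shFto, and from MCE to Diff 1 rose and 3 fell, and 1 rose and 2 fell. Of 22 upstream kinases and factors, none rose and 7 fell from Pre to MCE in shScram and 2 rose and 4 fell in shFto, while from MCE to Diff 3 and 2 rose and none fell. Of 13 AP-1 target genes, 2 rose and 6 fell from Pre to MCE in shScram and 5 rose and 7 fell in shFto, and from MCE to Diff 3 rose and 2 fell in each line. Of 9 other dimer partners, 1 rose and 2 fell from Pre to MCE in shScram and 1 rose and 3 fell in shFto, and from MCE to Diff 2 rose and none fell in each line. All-gene medians of these steps are -0.17, -0.18, 0.23 and 0.17 on the log2 scale, so single directions depend on the scaling, and without replicate 1 of shScram at Pre the counts differ, for example 7 rises and 11 falls of other immediate early genes from Pre to MCE in shScram.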
